A study of Drosophila melanogaster with 3 samples.

Results

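Fatty acids are built in the cytosol from citrate-derived acetyl-CoA. ATP citrate lyase makes acetyl-CoA, acetyl-CoA carboxylase turns it into malonyl-CoA, and fatty acid synthase joins these units into long-chain acids. Elongases, desaturases and fatty acyl-CoA reductases then give the very long chains, double bonds and alcohols from which insects make waxes and hydrocarbons, and transporters of the epidermis help to bring lipids to the cuticle, where they limit water loss. In the adult fly the oenocytes of the abdomen are the known source of cuticular hydrocarbons, and the lipid barrier of the cuticle itself is laid down over epidermal cells.

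The genes described here are 10 genes of this pathway, chosen by gene symbol: FASN1, FASN2, ACC, ATPCL, Desat1, eloF, bond, Baldspot, wat and snu. Of these, 9 had exactly 1 probe set that carried their symbol alone, among 18769 probe sets and 11981 named genes in all. Baldspot, an elongase gene, was not analysed here. The samples were wings of Oregon R *Drosophila melanogaster* pupae at about 80 h after puparium formation, as 3 biological replicates with 1 array each, and no other strain, stage or treatment was present. Flies were kept at 25 C, RNA came from batches of 40 flies, and the age was judged by eye from wing pigmentation, so it is approximate. Oregon R is a wild-type laboratory strain.

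The 3 arrays had median probe set signals of 68.3, 73.8 and 60.3 on replicates 1, 2 and 3. Pearson's r of log2 signals across probe sets was 0.913 to 0.918 between pairs of arrays, and 0.983 to 0.987 over the probe sets called above the reference. The reference level was the 95th percentile of 84 genes of other organs, namely 56 odorant receptors and 28 eggshell or male accessory gland proteins. It was 114, 110.4 and 96.5 on the 3 arrays. A probe set was called above the reference when limma's one-sided test of its log2 signal minus the level of the same array gave a Benjamini-Hochberg adjusted p under 0.05 over all 18769 probe sets. Signals of different probe sets depend on their probes as well as on the transcript, so their order is not an order of transcript abundance, and a probe set that is not above the reference does not show that the transcript is missing. A value given for a gene without a unit is its mean log2 signal minus the reference level over the 3 arrays. Markers of the wing epidermis were above the reference in 8 of 8 cases, against 44.0% of all named genes. Among them were the selector genes nub, vg and ap and the chitin synthase gene kkv.

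The late pupal wing had signal above the reference for 6 of the 9 measured genes: FASN1, ACC, Desat1, bond, wat and snu. The exceptions were ATPCL, FASN2 and eloF. Among all probe sets measured 33.9% were called, and among all named genes 44.0%, so the share of 66.7% among the 9 genes was larger than that background, as a description of 9 genes with no test. These genes were chosen with earlier results of these data known, so the larger share is not independent of those results. The median of the 9 genes lay 3.85 over the reference on the log2 scale, against 0.08 for all named genes. In whole wings, fewer cells of a type and less RNA per cell cannot be told apart.

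**Figure D1:**
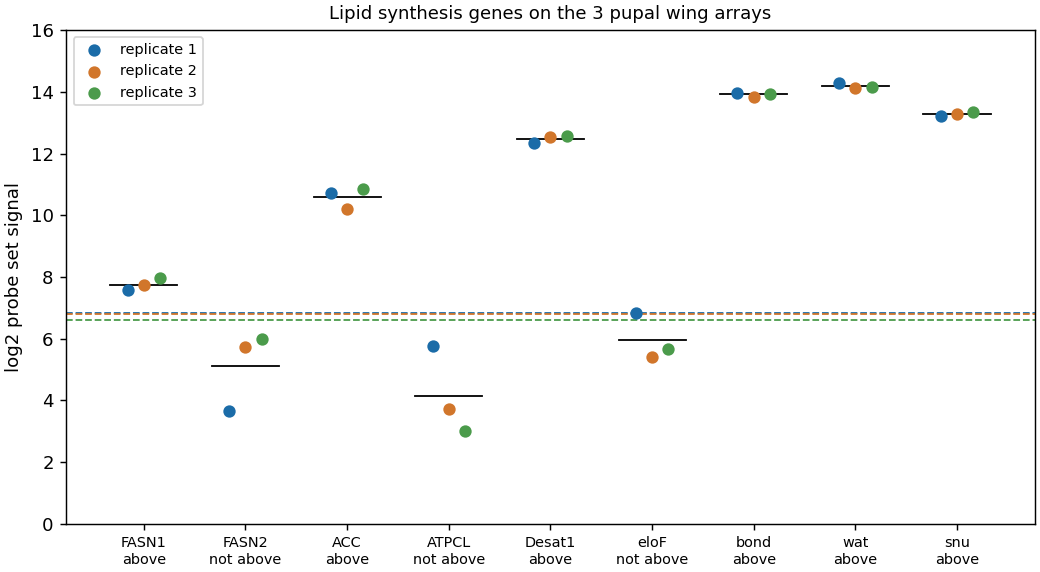
Log2 probe set signal (vertical axis) of the 9 measured genes on replicates 1, 2 and 3 (coloured points), with black bars for the mean of the 3 arrays and dashed lines for the reference level of each array in the same colour. FASN1, ACC, Desat1, bond, wat and snu lie over the lines on all 3 arrays, whereas FASN2 and ATPCL lie under them and eloF touches its line on replicate 1 alone.

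At the first steps, ACC was above the reference and ATPCL was not. ACC, the enzyme that commits acetyl-CoA to lipid synthesis, had signals of 1698, 1171 and 1841 on replicates 1, 2 and 3. Each was more than 10-fold its array's reference level, and replicate 2 was the lowest. ACC lay 3.85 over the reference on the log2 scale (95% interval 3.16 to 4.55, n = 3; limma adjusted p = 0.000578). ATPCL, which supplies cytosolic acetyl-CoA from citrate, had signals of 53.7, 13.1 and 7.97, all under the reference of their arrays. Its mean lay at -2.58 against the reference (95% interval -4.32 to -0.85, n = 3; limma adjusted p = 1.0), and replicate 1 was 6.74-fold replicate 3. The ATPCL probe set is of the _s_at type, which can hybridise to transcripts of more than 1 gene, and the ACC probe set is of the _a_at type, which matches several transcripts of 1 gene.

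Acetyl-CoA can also be made from acetate. AcCoAS, acetyl-CoA synthetase, had signals of 655, 841 and 763, which put it 2.81 over the reference (limma adjusted p = 0.000667, n = 3). NADP-dependent enzymes, some of which can supply reducing power for lipid synthesis, were above the reference too. Men, malic enzyme, lay 6.50 over it with signals of 9948, 9628 and 9406, Men-b lay 3.22 over it, and Idh, isocitrate dehydrogenase, lay 6.99 over it with signals of 14753, 12449 and 13568. Of the 9 measured genes of precursor supply and fatty acid synthesis 6 were above the reference (66.7%, against 44.0% of all named genes), with a median of 2.81. The genes sea, Zw and Pgd of this list were not analysed here.

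The fatty acid synthases split. FASN1, the synthase with a broad role in fat storage, had signals of 191, 214 and 248 on replicates 1, 2 and 3. All 3 were over their reference levels, with replicate 3 the highest, and the gene lay 1.02 over the reference on the log2 scale, a 2.03-fold signal (95% interval 0.43 to 1.61, n = 3; limma adjusted p = 0.0156). This was the call of the 6 closest to the threshold. Under 2 higher reference levels, the 99th percentile of the same genes and the 95th percentile of the 28 eggshell and accessory gland genes, FASN1 lay at -0.02 (adjusted p = 1.0) and 0.23 (adjusted p = 0.509) and was not called. Nor was it called without replicate 2 (1.05, adjusted p = 0.0691) and without replicate 3 (0.85, adjusted p = 0.0585). FASN2, a synthase known from oenocytes, had signals of 12.6, 53.4 and 62.9, all under the reference, and lay at -1.61 (95% interval -3.40 to 0.18, n = 3; limma adjusted p = 1.0). FASN2 and FASN1 are next to each other in the RefSeq gene order, with 0 protein-coding genes between them. FASN3, the other paralog, had signals of 22.9, 38.9 and 33.7 and lay at -1.78 (limma adjusted p = 1.0, n = 3).

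Among elongases, bond was above the reference and eloF was not. The elongase condensing enzymes add 2-carbon units to fatty acyl-CoA. bond, known for its part in male fertility and in a male pheromone, had signals of 16169.8, 14684 and 15719 on replicates 1, 2 and 3. These differed by 1.10-fold at most, and bond lay 7.18 over the reference on the log2 scale (95% interval 6.71 to 7.66, n = 3; limma adjusted p = 0.000186). Its probe set is of the _s_at type. eloF, an elongase of female hydrocarbon synthesis, had signals of 115, 42.2 and 50.6. Replicate 1 stood 0.02 over its array's reference on the log2 scale and replicates 2 and 3 stood under theirs, and the mean was -0.77 (95% interval -1.77 to 0.24, n = 3; limma adjusted p = 1.0).

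Of 18 measured elongase genes 6 were above the reference (33.3%, against 44.0% of all named genes), with a median of -1.23. Apart from bond, those furthest over it were CG33110 (7.04), CG31522 (5.11) and Elovl7 (5.08). The call of CG31522 rested on 1 of its 3 probe sets, of the _s_at type, and its other probe sets lay at -3.52 and -2.81. Those furthest under the reference were Elo68alpha (-3.51), CG16904 (-2.79) and CG6660 (-2.52). Elongase genes lie beside both eloF and bond in the RefSeq gene order. Next to eloF, with up to 2 genes between, lie CG8534, CG16904, CG9459 and CG9458, and 0 of these 5 genes were called by limma, with means from -2.79 to -0.77. In this group 0 genes had an unadjusted p under 0.05. Around bond, sit (1.15, limma adjusted p = 0.0066, n = 3) and CG33110 (limma adjusted p = 0.000193) were above the reference, whereas CG5326 was not (-1.64). The sit call was lost under both higher reference levels (0.11 and 0.35).

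**Figure D2:**
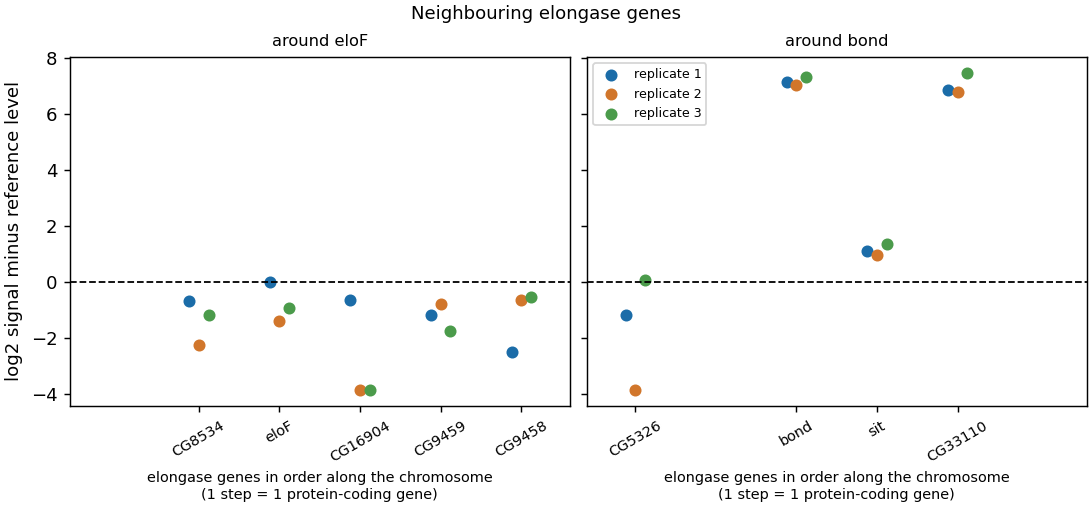
Log2 signal minus the array's reference level (vertical axis) on replicates 1, 2 and 3 for elongase genes in their order around eloF (left) and around bond (right), with 1 step on the horizontal axis for each protein-coding gene and a dashed line at the reference. Around eloF the points lie at or under the line, and around bond the points of bond, sit and CG33110 lie over it on all 3 arrays.

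The other enzymes of the elongation cycle reduce and dehydrate the product of the condensing step. Their genes were above the reference in 4 of 4 cases, against 44.0% of all named genes, with a median of 2.76. They were the ketoacyl-CoA reductase gene spidey (1.01), the dehydratase genes Hacd1 (4.44) and Hacd2 (2.07), and Sc2, the enoyl-CoA reductase gene (3.45). Signals of spidey were 245, 218 and 184 on replicates 1, 2 and 3, and its call was lost under both higher reference levels (-0.03 and 0.21) and without replicate 1 (0.96).

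Desat1 signal was well over the reference. Desat1, the delta-9 desaturase that puts the double bond into palmitic and stearic acid, had signals of 5197, 5986 and 6065 on replicates 1, 2 and 3. The arrays differed by 1.17-fold at most, and Desat1 lay 5.75 over the reference on the log2 scale (95% interval 5.23 to 6.27, n = 3; limma adjusted p = 0.000193). Its probe set is of the _s_at type. Of 8 desaturase genes 4 were above the reference, against 44.0% of all named genes, with a median of 0.58, and the others above it were CG8630 (2.28), ifc, the sphingolipid desaturase gene (1.87), and CG9743 (1.34). The CG9743 call was lost under both higher reference levels (0.30 with an adjusted p of 0.32, and 0.55 with an adjusted p of 0.0528).

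The sex- and strain-linked desaturase genes of hydrocarbon synthesis were not above the reference. Fad2, also called desatF, is needed for the dienes of females and had signals of 19.9, 35.8 and 40.9 (-1.79, limma adjusted p = 1.0, n = 3). Desat2, which lies close to Desat1 with 2 protein-coding genes between them, had signals of 116, 59.3 and 123 (-0.17, limma adjusted p = 1.0, n = 3). Replicates 1 and 3 of Desat2 stood over their reference levels and replicate 2 under it. CG9747 (-0.46) and CG15531 (-2.93) completed the list.

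The reductase gene wat carried signal far over the reference. wat, or waterproof, encodes a fatty acyl-CoA reductase that tracheae need to fill with gas, and had signals of 19943, 18046 and 18177 on replicates 1, 2 and 3. The arrays differed by 1.11-fold at most, with replicate 1 the highest, and wat lay 7.45 over the reference on the log2 scale (95% interval 7.0 to 7.91, n = 3; limma adjusted p = 0.000186). Its probe set is of the _at type, specific to 1 transcript sequence. Of 15 measured fatty acyl-CoA reductase genes 5 were above the reference (33.3%, against 44.0% of all named genes), with a median of -0.44. The others furthest over it were CG1441 (7.67), CG30427 (5.46) and CG8306 (4.51), and those furthest under it were CG14893 (-3.81), CG17560 (-3.61) and FarO (-2.91), a reductase gene of the oenocytes. The CG1441 probe set is of the _s_at type. CG30427 was called by 1 of its 3 probe sets, and the other probe sets lay 0.98 and 0.58 over the reference without passing.

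The last step from aldehyde to hydrocarbon was not seen above the reference. Cyp4g1, the P450 of the oenocytes that removes the aldehyde carbon, had signals of 55.0, 15.7 and 64.4 on replicates 1, 2 and 3 and lay at -1.48 (limma adjusted p = 1.0, n = 3). Its relative Cyp4g15 had signals of 66.3, 69.7 and 77.1, all under the reference and close to each other, and lay at -0.59 (limma adjusted p = 1.0, n = 3). Neither had an unadjusted p under 0.05. Cpr, the reductase that serves P450 enzymes, was not analysed here.

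Genes of cuticle lipid transport were above the reference in 4 of 4 cases, against 44.0% of all named genes, with a median of 6.73. snu, or snustorr, encodes an ABC transporter of the epidermis that is needed for the outward lipid barrier, and had signals of 9534, 9990.3 and 10496 on replicates 1, 2 and 3. The arrays differed by 1.10-fold at most, and snu lay 6.55 over the reference on the log2 scale (95% interval 6.05 to 7.05, n = 3; limma adjusted p = 0.000186). Its probe set, like that of ACC, is of the _a_at type. snsl, whose extracellular product acts with snu, had signals of 7705, 7487 and 6581 (6.09). The ABC transporter genes osy (7.60) and CG11147 (6.92) completed the list, and osy was above the reference with both of its probe sets. The probe sets of snsl and CG11147 are of the _s_at type.

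**Figure D3:**
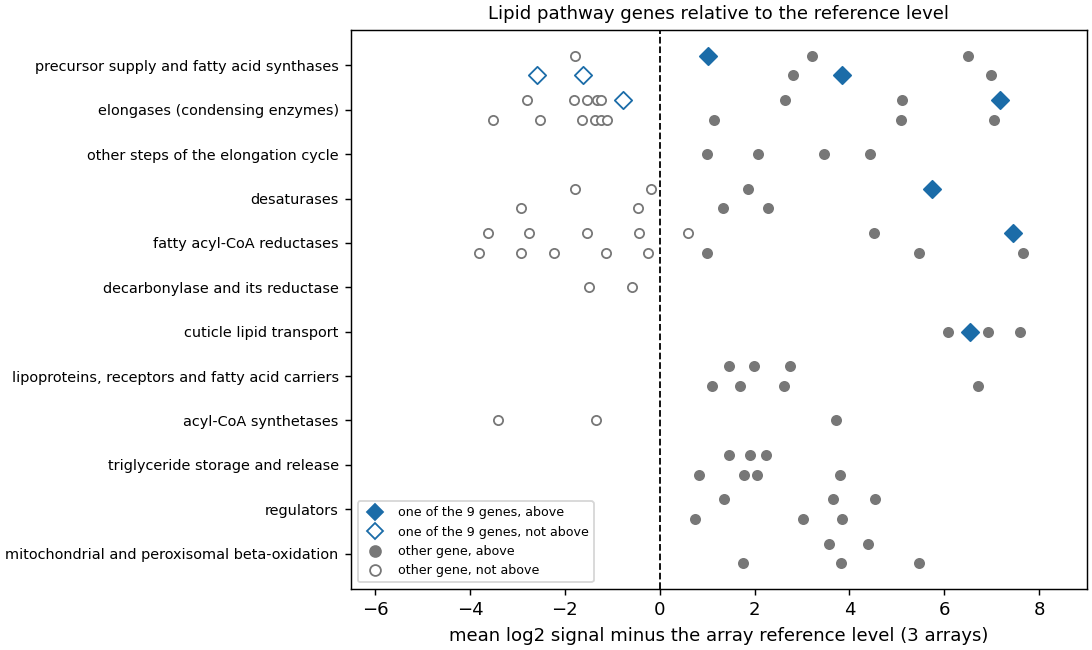
Mean log2 signal minus the array's reference level over 3 arrays (horizontal axis) for the measured genes of 12 lipid pathway lists (rows), with diamonds for the 9 genes of this account, circles for other genes, filled symbols for genes above the reference and open symbols for genes not above it. Cuticle lipid transport, lipoproteins and carriers, triglyceride storage, regulators, beta-oxidation and the later steps of the elongation cycle hold filled symbols alone, and elongases, desaturases and reductases spread on both sides of the dashed line.

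Genes of lipoproteins, their receptors and fatty acid carriers were above the reference in 7 of 7 measured cases, with a median of 1.998. Among all named genes the share was 44.0%. LpR1, a lipophorin receptor gene, had signals of 11621, 10346 and 11826 (6.72), from 1 of its 2 probe sets, the other one at -2.61. LpR2, its paralog, lay at 1.46, the microsomal transfer protein gene Mtp at 2.75 with signals of 633, 495 and 1171, the lipophorin gene apolpp at 2.62, the carrier gene Apoltp at 1.11, the fatty acid transporter gene Fatp3 at 1.998 and the fatty acid binding protein gene fabp at 1.70. LpR2 and Apoltp were not called under either of the higher reference levels, and Apoltp was not called without replicate 2 (1.01, adjusted p = 0.0504). Of 3 acyl-CoA synthetase genes Acsl was above the reference (3.73), with signals of 984, 1286 and 2226, whereas bgm (-1.35) and hll (-3.40) were not.

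Regulators of lipid synthesis were above the reference in 6 of 6 cases, against 44.0% of all named genes, with a median of 3.34. SREBP, the transcription factor that controls fatty acid synthesis genes in flies, had signals of 1316, 1888 and 1454 (3.85). Its escort SCAP lay at 1.36, and its proteases at 0.75 for S1P and 3.03 for S2P. AMPKalpha, the kinase that inhibits ACC, lay at 4.53, and the nuclear receptor gene Hnf4 at 3.65. S1P was the closest to the threshold (limma adjusted p = 0.0409, n = 3). The S1P call was lost in 4 of 12 alternatives, and SCAP was not called under either of the higher reference levels.

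Storage and breakdown genes were likewise above the reference in 7 of 7 and 5 of 5 measured cases, with medians of 1.90 and 3.82. Among all named genes the share was 44.0%. The storage list held the perilipin genes Lsd-2 (3.80) and Lsd-1 (1.90), Gpat4 (2.25), Lpin (2.05), the lipase gene bmm (1.78) and the diglyceride acyltransferase genes mdy (1.46) and Dgat2 (0.82). Dgat2 was not called in 5 of 12 alternatives, among them each of those that left out 1 replicate, and mdy was not called under either of the higher reference levels. In beta-oxidation, whd, which encodes the carnitine palmitoyltransferase of mitochondria, lay at 5.47 with 1 probe set and at -2.85 with the other. It was followed by yip2 (4.39), Mtpbeta (3.82), scu (3.58) and Acox57D-p, an oxidase gene of peroxisomes (1.76). Over all 12 lists 55 of 88 measured genes were above the reference (62.5%, against 44.0% of all named genes), and without the 9 genes of this account 49 of 79 (62.0%). The lists, too, were chosen with earlier results of these data known, so these shares are not independent of those results. The 55 genes differed between their highest and lowest array by a median of 0.25 on the log2 scale, and the widest differences among them were 1.24 for Mtp and 1.18 for Acsl, both with replicate 3 the highest.

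Markers of the other cell types that make lipids gave a mixed picture. The share above the reference was 20.0% for oenocyte and 66.7% for fat body markers, against 44.0% of all named genes. Of 5 oenocyte markers only Hnf4, which is not restricted to oenocytes, was above the reference, and Cyp4g1, Fad2, FarO and svp (-0.95) were not. Their summed signal was 1370.3 to 1652 over the 3 arrays, most of it from Hnf4. Such sums, here and for the cell types below, depend on the probes of each marker and do not compare amounts of cell types. Of 6 measured fat body markers 4 were above the reference, namely apolpp, Lsp2 (2.14), Fbp2 (1.64) and Fbp1 (0.98), and Yp1 (-3.33) and Yp2 (-3.61) were not. Their summed signal was 1589 to 1929.9 over the 3 arrays. With the 99th percentile as reference 2 of the 6 were called, since Fbp2 lay at 0.60 (adjusted p = 0.0739) and Fbp1 at -0.059. Fbp1 was not called under the level of the eggshell and accessory gland genes (0.19, adjusted p = 0.504) or without replicate 2 (0.99, adjusted p = 0.056) either.

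Cell types that a dissected wing can also hold were measured by their own markers. Of 5 haemocyte markers 2 were above the reference, the scavenger receptor gene crq (5.16) with a probe set of the _s_at type and NimC1 (0.94), whereas Hml (-1.76), He (-1.36) and srp (-0.77) were not. Their summed signal was 3765 to 4655, most of it from crq. Of 4 measured muscle markers 2 were above it, the flight muscle genes Act88F (2.20) and fln (1.44), and up (-1.74) and TpnC4 (-0.47) were not, with a summed signal of 654 to 1074.8. The haemocyte and muscle counts were each 1 under both higher reference levels and without replicate 1, and also without replicate 2 for haemocytes and without replicate 3 for muscle. Neither measured tracheal marker, btl (-4.00) and dysf (-1.25), was called by limma or had an unadjusted p under 0.05, and their summed signal was 44.6 to 62.7. Of 4 neuronal markers limma called 0, with a summed signal of 511 to 574, and 2 had an unadjusted p under 0.05, elav (0.90, adjusted p = 0.126) and para (0.85, adjusted p = 0.0863). The neuronal count was 1 without replicate 3 or when odorant receptors alone set the level, and 2 with an intensity trend. Every measured marker had a signal over 0 on every array, the lowest being 3.22 for Yp1 on replicate 1. A signal over 0 alone does not show that a marker was expressed. The part of fat body or other cells in the signals of FASN1, wat, apolpp and the storage genes was not tested.

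Of the 6 genes above the reference, bond, wat, snu and Desat1 varied less between arrays than the median probe set above it. FASN1 and ACC varied more, and they also had the lowest mean signals of the 6 (217 and 1570). The median was taken over probe sets of all signal levels, so the part of signal level in these differences was not tested. The difference between the highest and the lowest array was 0.14 on the log2 scale for bond, wat and snu, 0.22 for Desat1, 0.38 for FASN1 and 0.65 for ACC, against a median of 0.30 over all 6367 probe sets above the reference. ACC was the only one of the 6 whose highest array was over 1.5-fold its lowest (1.57-fold), a spread that 13.5% of all probe sets above the reference reached. Without replicate 2 the difference for ACC was 0.12, which had to be smaller because replicate 2 was the lowest array for ACC. The 3 genes not above the reference differed by 1.45 for eloF, 2.32 for FASN2 and 2.75 for ATPCL, against a median of 1.49 over all probe sets not above it, where 85.0% differed by over 1.5-fold.

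By signal, no array was the highest or the lowest for all of the genes above the reference. Replicate 3 had the highest signal for FASN1, ACC, Desat1 and snu, and replicate 1 for bond and wat. Over all probe sets above the reference replicate 3 had the highest signal in 24.5% of cases. With quantile normalization the highest array of Desat1 was replicate 2, and the highest arrays of the other 5 genes stayed as they were. Relative to each array's reference level, however, replicate 3 was the highest for every one of these genes, for example bond (7.15, 7.06 and 7.35) and wat (7.45, 7.35 and 7.56). Replicate 3 also had the lowest reference level (96.5, against 114 and 110.4). Since the 3 arrays are replicates of 1 group, these differences carry no contrast. Each biological replicate has 1 array, so differences between wing collections staged by eye and between arrays cannot be told apart.

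**Figure D4:**
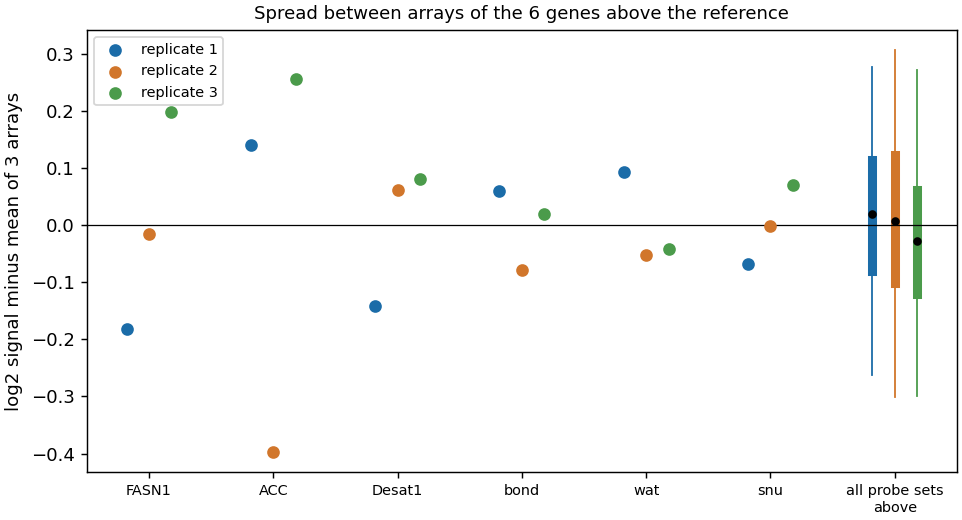
Log2 signal minus the mean of the 3 arrays (vertical axis) for the 6 genes above the reference, with 1 point for each replicate. At the right are all 6367 probe sets above the reference, with dots for the median, thick bars for the interquartile range and thin lines from the 5th to the 95th percentile. ACC on replicate 2 lies lowest, and the points of bond, wat and snu lie close to 0.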

How the data were processed

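Wings of 1 group were measured on 3 arrays. The deposited values are linear intensity signals, 1 for each probe set and array, and MAS5 and RMA are named, per the submitters' processing notes, without role or version. The mean signal after trimming 2% at each end was 500.0 on every array, a feature of MAS5 scaling. No genome build is given in the sources used here. The intensity values were used as log2 with no further normalization and no filter. Probe sets with 1 symbol in the platform annotation (13646) were named, and 13543 were found in RefSeq's table (Release 6), which gave gene order only. For lists, the probe set with the highest mean stood for its gene. limma 3.58.1 in R 4.3.3 was fitted to all 18769 non-control probe sets, with a prior of 1.5 degrees of freedom, and it was tested on simulated data. The number of arrays limits the precision, and intervals leave out the uncertainty of the reference level. Members and lists were chosen with earlier results of these data known. All 9 members were named; of lists with over 8 measured genes, the 4 furthest over the reference and the 3 furthest under it, beside the genes next to members. Of longer lists and marker lists, further genes were named after their values were seen. Figures used matplotlib 3.10.9 under Python 3.11.15.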

Additional observations from a re-analysis of the deposited data

How the results depend on the processing

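The number of the 9 genes above the reference was 6, and 5 to 6 when 1 replicate was left out, 5 with either higher reference level (the 99th percentile, or the eggshell and accessory gland genes alone), and 6 in the other alternatives, which were odorant receptors alone, log2(signal + 16), probe sets with a highest signal under 32 left out, quantile normalization, an intensity trend and 1 probe set for each gene. FASN1 was the gene lost each time, and lay at -0.016 with the 99th percentile. ACC, Desat1, bond, wat and snu were called in all 11 of these alternatives, and FASN2, ATPCL and eloF in 0. Another alternative, chosen for these genes after seeing the data, left out _s_at, _x_at and _a_at probe sets. In it 2 of the 4 genes still measured, FASN1 and wat, were above the reference, against 37.9% of named genes. ACC, ATPCL, Desat1, bond and snu have no other probe set and could not be measured there. Among the other named genes, CG1441, CG11147, snsl, Idh, SREBP, AMPKalpha, Acsl, mdy and crq were measured by an _s_at probe set alone. The count of 55 pathway genes was 50 to 52 with 1 replicate left out and 44 to 56 in other alternatives. With probe sets of a highest signal under 32 left out, 82 of the 88 pathway genes were measured. Without _s_at, _x_at and _a_at probe sets the count was 31 of 63 (49.2%, against 37.9% of named genes), where fewer genes were measured. Without these probe sets CG31522 lay at -2.81 and whd at -2.85, and with the mean of its probe sets CG31522 lay at -0.40. With the 99th percentile Fbp1 lay at -0.059, spidey at -0.031, S1P at -0.28 and Dgat2 at -0.22. S1P lay at -0.039 under the level of the eggshell and accessory gland genes. Desat2 lay at 0.12 with odorant receptors alone and at -0.44 to 0.19 with 1 replicate left out, and was not called in any of these. Among the other named genes, 11 lost a call with the same sign in 24 cases. Over 12 alternatives the number of markers called was 5 to 8 for the wing epidermis and 0 to 1 for oenocytes. The alternative without _a_at probe sets could not measure kkv, Ddc or Hnf4. The median difference between arrays was 0.18, and 0.17 to 0.21 under other scaling and 0.08 to 0.16 with 1 replicate left out. A difference over fewer arrays cannot exceed that over all 3. Why calls near the reference changed was not tested beyond these settings. No paired analysis was possible because there was only 1 group of samples.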
